A study of Mus musculus with 6 samples.

Results

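The genes described here are 33 enzymes of nucleotide and folate synthesis, taken by symbol from the deposited table of 55487 gene identifiers, in bulk RNA sequencing of mouse megakaryocyte-erythroid progenitors. These are marrow progenitors that give rise to red cells and platelets. Both groups were wild type C57BL/6 mice aged 8 weeks, and each gave 3 libraries: a control group, and a group fasted for 6 h. The series asks, by its title, what short fasting does to red cell formation in the marrow. The labels say neither how the cells were sorted nor whether the libraries came from separate animals or from pools, and the p-values below measure only the spread between these libraries. The sequenced cells were a bulk population, in which fewer cells of a type and less RNA per cell cannot be told apart.

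Purines are built atom by atom on phosphoribosyl pyrophosphate (PRPP) until the ring is closed as inosine monophosphate (IMP), from which AMP and GMP branch. Pyrimidines are made as a ring first and joined to PRPP afterwards. Ribonucleotide reductase turns ribonucleotides into the deoxynucleotides of DNA, and thymidylate synthase makes thymidylate with a one-carbon unit carried by folate. Dividing blood progenitors draw on these routes in each S phase, and red cell precursors are sensitive to folate shortage and to inhibitors of these enzymes.

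In fasted libraries most of these genes had lower values than in control libraries, by small amounts, and none passed the test. Values are CPM, the counts of a gene scaled to a common library size over the expressed genes by TMM factors, and an expressed gene is one that passed edgeR's count filter with a mean count at least 5 times the level seen over olfactory and vomeronasal receptor genes, which blood cells should not use. Of the 33 enzymes 31 were expressed by this rule. The fitted log2 fold change, fasted over control and given below as value ± SE, was below 0 for 27 of the 31, which is 87.1%, against 47.7% of the 10648 expressed genes. Its median over the 31 was −0.24, the middle of the values ran from −0.45 to −0.10 (quartiles), and the median over all expressed genes was 0.02. For 15 of the 31 the 3 fasted libraries all lay below the 3 control libraries, a pattern that 13.0% of the expressed genes had, and for 0 of the 31 did they all lie above, against 14.4% of the expressed genes. By edgeR's quasi-likelihood test with Benjamini-Hochberg adjustment 0 of the 31 were called at an adjusted p under 0.05, and 0.00% of all expressed genes were. limma-voom called 0 enzymes as well. By edgeR the lowest adjusted p among the enzymes was 0.131 and the lowest of any gene 0.0900. At an unadjusted p under 0.05 there were 10 enzymes, all lower in the fasted group, and 2115 expressed genes, of which 884, or 8.30% of all expressed genes, were lower. DESeq2 on the same genes called 4 enzymes lower, Umps, Shmt1, Prps1 and Prps2, where it called 1.65% of the expressed genes lower. Dropping 1 library at a time left 0 to 4 DESeq2 calls, with 0 when fasted library 3 was dropped. The shares of expressed genes called in those fits are not given here.

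The size of these differences depends on which genes set the scale. With all 36508 genes that pass the count filter in the fit, 25860 of them below 5 times the receptor level, the expressed genes as a whole had a median of −0.50 and the 31 enzymes one of −0.76. All 31 were then below 0, as were 82.6% of the expressed genes, and 14 were called lower by edgeR, where 3.82% of all genes fitted and 12.8% of the expressed genes were called lower. The 14 became 0 when fasted library 3 was left out, 1 for fasted library 1, 2 for control library 2, 9 for control library 1 and 27 for control library 3. The shares of all genes called in those fits are not given here. Whether these counts moved with the calls over all genes was not tested. Relative to the median of the expressed genes the enzymes' median sat 0.26 lower in either fit, on the log2 scale. The plot of fold changes in the 2 fits shows that nearly the whole column of values moves together.

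**Figure D1:**
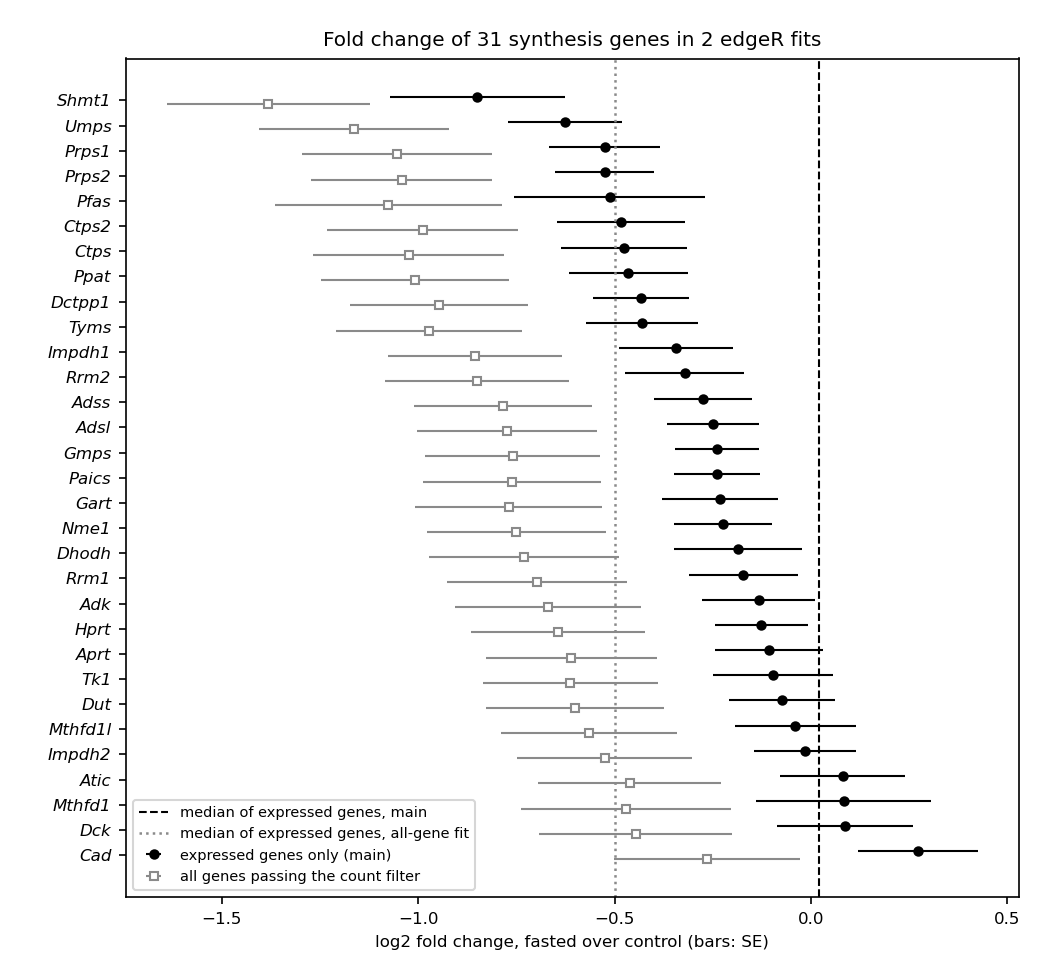
Log2 fold change, fasted over control, of the 31 expressed nucleotide and folate synthesis genes (vertical axis) in the fit of expressed genes (filled circles) and in the fit of all genes passing the count filter (open squares), with bars of 1 SE and lines at each fit's median over the expressed genes. The filled circles run from −0.85 for Shmt1 to 0.27 for Cad and the squares lie further left by about the distance between the 2 lines.

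Library totals ran from 22445970 to 30246110 counts in the control group and from 12797144 to 18225191 counts in the fasted group. Receptor genes had 8.98, 13.1 and 14.7 counts per kilobase in control libraries 1 to 3 and 14.2, 16.0 and 14.8 in fasted libraries 1 to 3, so the shallower fasted libraries carried a larger background share. The 16 erythroid markers summed to 4665 to 7956 CPM in control and 6270 to 9323 CPM in fasted libraries, with 14 of 16 expressed, and Gata1, Klf1 and Car1 were present in every library. The 14 megakaryocyte and platelet markers summed to 691 to 936 CPM in control and 422 to 647 CPM in fasted libraries, with 9 expressed and Gp1bb and Ppbp near 0. Granulocyte and monocyte markers, which belong to another lineage, summed to 4054, 12752 and 19295 CPM in control libraries 1 to 3 and to 4967, 3273 and 1839 CPM in fasted libraries 1 to 3, with 16 of 17 expressed. Stem and multipotent markers (7 of 11 expressed) summed to 1278 to 1755 CPM in control and 1003 to 1406 CPM in fasted libraries, lymphocyte markers (7 of 15) to 206 to 298 and 298 to 551 CPM, and mast cell and basophil markers (4 of 7) to 118 to 223 and 65.2 to 125 CPM. Of these sums those of the megakaryocyte and platelet markers did not overlap between groups and those of the lymphocyte markers met at 298 CPM, while the others overlapped. Their part in the results below was not tested.

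Summed over all 33 genes the level was 8663, 7879 and 7234 CPM in control libraries 1 to 3 and 6140, 6818 and 7290 CPM in fasted libraries 1 to 3. Fasted library 3 lay above control library 3, so the groups overlapped in the sum. Fasted libraries 1 and 2 held the highest value of 0 of the 31 expressed enzymes, while fasted library 1 held the lowest value of 16. Control library 1 held the highest value of 15 and control library 2 of 8. Without control library 1 the median was −0.20, 27 were below 0, and for 16 of 31 the remaining groups did not overlap, against 18.1% of expressed genes. Control library 3 and fasted library 3 both held values at either end: each was the highest for 4 enzymes, and they were the lowest for 5 and 4.

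**Figure D2:**
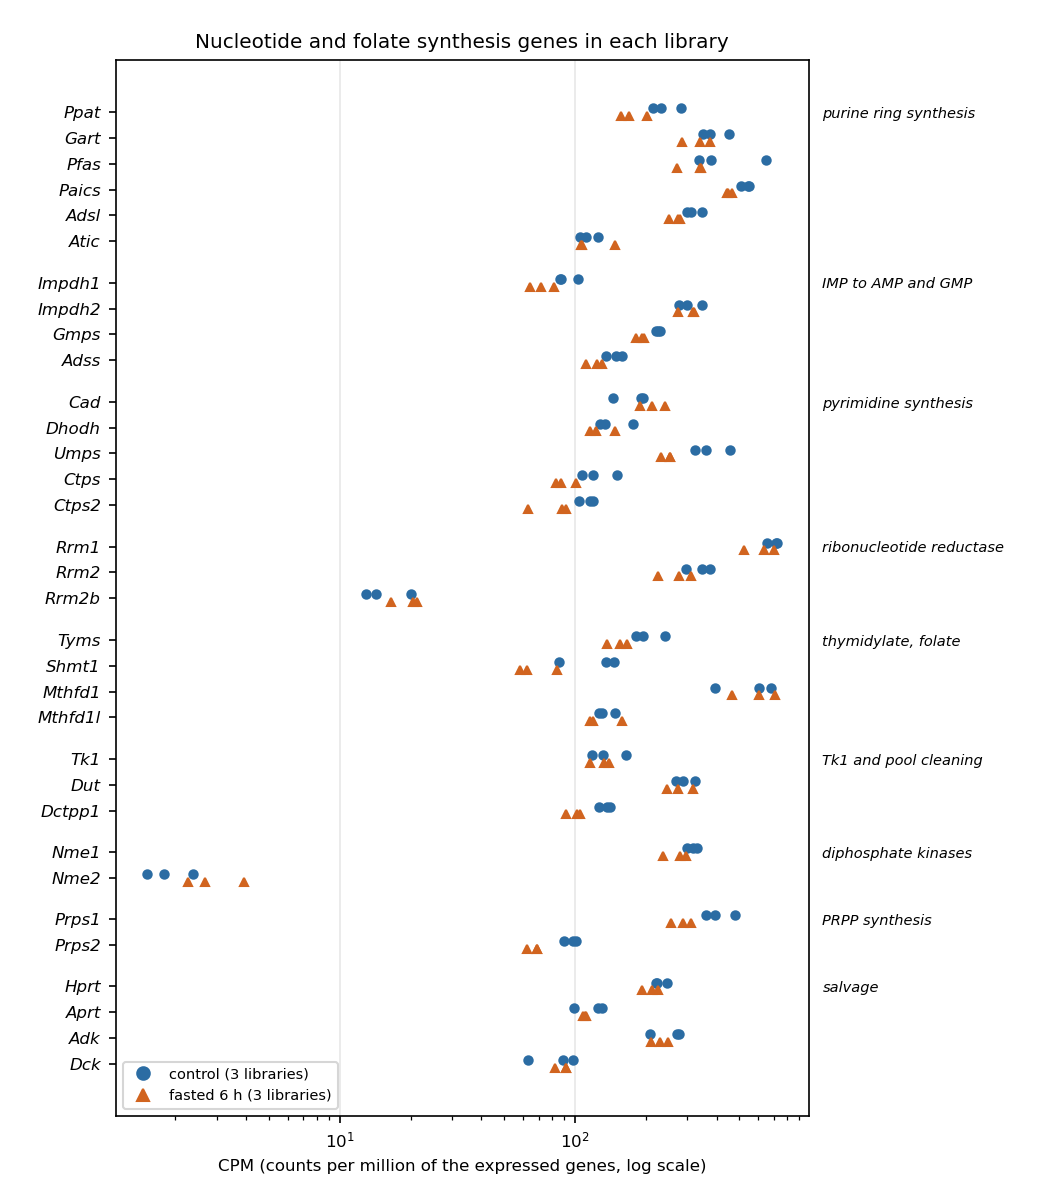
Level of each of the 33 genes (vertical axis, grouped by role) in CPM on a log axis, 1 point per library, control as circles and fasted as triangles. For 15 genes, among them Umps, Prps1, Prps2, Shmt1 and Dctpp1, the 3 triangles lie left of the 3 circles, and Rrm2b and Nme2 sit far below the rest.

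Per kilobase of exon the enzymes spanned a wide range of levels in control libraries. The highest was Prps1 at 206 CPM per kilobase, followed by Dctpp1 at 199, Hprt at 178 and Paics at 170.0. Among the expressed enzymes Cad at 21.7 and Atic at 14.3 were lowest. Rrm2b and Nme2, at 1.73 and 1.61 CPM per kilobase, were 2.59 and 2.67 times the receptor level and were left out of the fit of expressed genes.

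Promoter sequences are shown for 4 enzymes whose groups did not overlap, Shmt1, Prps1, Prps2 and Tyms, and for Cad, the enzyme with the highest fold change, so that the start regions of genes at both ends of the range can be read. Each is the 150 bases before the RefSeq transcript start on GRCm38.p6, 5′ to 3′ on the gene's strand. The stretches hold no annotated exon, and that of Shmt1 lies inside the gene as M21 draws it, which has a further start upstream. Capitals mark an E-box (CACGTG, bound by MYC family proteins), an E2F element (TTTCCCGC or TTTGGCGC) or a CCAAT box, on either strand. The Shmt1 stretch is chr11:60811266-60811415 on the minus strand, the Prps1 stretch chrX:140456453-140456602 on the plus strand, the Prps2 stretch chrX:167382750-167382899 on the minus strand, the Tyms stretch chr5:30073626-30073775 on the minus strand and the Cad stretch chr5:31054630-31054779 on the plus strand.
Shmt1: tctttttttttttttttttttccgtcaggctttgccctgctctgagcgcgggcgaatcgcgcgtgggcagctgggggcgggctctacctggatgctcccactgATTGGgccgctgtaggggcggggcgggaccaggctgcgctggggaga
Prps1: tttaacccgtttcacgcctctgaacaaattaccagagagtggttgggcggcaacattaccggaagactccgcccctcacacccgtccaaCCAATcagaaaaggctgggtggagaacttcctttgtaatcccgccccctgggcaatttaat
Prps2: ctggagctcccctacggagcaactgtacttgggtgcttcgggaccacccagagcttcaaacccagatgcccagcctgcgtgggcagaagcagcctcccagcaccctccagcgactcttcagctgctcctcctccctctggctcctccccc
Tyms: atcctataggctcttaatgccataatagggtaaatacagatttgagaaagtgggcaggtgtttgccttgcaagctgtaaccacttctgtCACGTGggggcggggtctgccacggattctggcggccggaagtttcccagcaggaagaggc
Cad: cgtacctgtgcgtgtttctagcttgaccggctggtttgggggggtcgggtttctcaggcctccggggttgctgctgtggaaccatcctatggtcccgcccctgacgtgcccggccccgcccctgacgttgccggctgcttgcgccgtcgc

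In these stretches Shmt1 has a CCAAT box on its other strand, read as ATTGG, Prps1 a CCAAT box, and Tyms an E-box. Prps2 and Cad hold none of the 3 motifs in the bases shown. RefSeq entries were matched for 30 of the 33 genes, and each motif was searched on both strands from 250 bases before to 50 bases after the start. An E-box stood in 5 of 30, which is 16.7%, against 8.1% of 27025 genes: Atic, Impdh2, Nme1, Paics and Tyms. The E2F letters stood in 2 of 30, Ppat and Prps2 (there after the start), against 1.8% of genes, and a CCAAT box in 12 of 30, which is 40.0%, against 41.1%. The GC box GGGCGG, where Sp1 family proteins bind, stood in 26 of 30, which is 86.7%, against 38.2% of genes. The element TGATGCAA, bound by ATF4, stood in 0 of 30, against 1.0%. Of the 5 enzymes with an E-box 3, Nme1, Paics and Tyms, had groups that did not overlap and 2, Atic and Impdh2, had groups that did. Of all 31 expressed enzymes 15 had lower groups without overlap, as did 13.0% of the expressed genes. A link between the E-box and the fold changes was not tested. The comparison shares are over all genes with an entry, expressed here or not, and shares over expressed genes alone were not computed. These matches describe letters only.

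PRPP synthetases make the ribose donor on which purine, pyrimidine and salvage routes all rely. Prps1, the main form in most tissues, had 478, 361 and 393 CPM in control libraries 1 to 3 and 257, 311 and 288 CPM in fasted libraries 1 to 3. Prps2, a second isoform from another gene on the X chromosome, had 101, 89.6 and 98.2 CPM in control and 69.2, 69.3 and 62.2 CPM in fasted libraries. In both genes every fasted library lay below every control library, and the fasted mean was 69.5% of control for Prps1 and 69.5% for Prps2. The log2 fold change was −0.53 ± 0.14 for Prps1 (edgeR adjusted p = 0.146) and −0.53 ± 0.13 for Prps2 (edgeR adjusted p = 0.131). DESeq2's adjusted p was 0.0453 and 0.0184. In the edgeR fit of all genes the values were −1.05 (adjusted p = 0.0333) and −1.04 (adjusted p = 0.0305).

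The ratio of Prps1 to Prps2 counts within a library was 4.73, 4.03 and 4.00 in control libraries and 3.71, 4.48 and 4.63 in fasted libraries. The groups overlapped, and the means were 4.25 ± 0.41 and 4.28 ± 0.50 (SD, n = 3). A ratio within a library does not depend on how libraries are scaled. The 9 ratios computed, of which 6 are given, were chosen after the values were seen and carry no test.

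Purine ring synthesis starts with Ppat, the amidophosphoribosyltransferase that commits PRPP to the route. Ppat (chr5:76913249-76951578, minus strand) had 284, 232 and 215 CPM in control and 157, 169 and 203 CPM in fasted libraries. The groups did not overlap, fasted library 3 being closest to the control range, and the log2 fold change was −0.46 ± 0.15 (edgeR adjusted p = 0.166). Pfas, the synthase of the fourth step of the ring, had 651, 377 and 336 CPM in control and 272, 339 and 344 CPM in fasted libraries. Control library 1 stood far above the other 5 libraries, which overlapped. The fitted value for Pfas was −0.51 ± 0.24 (edgeR adjusted p = 0.28), and it was −0.16 without control library 1. Paics, a bifunctional enzyme of the middle steps, had 552, 543 and 506 CPM in control and 445, 464 and 447 CPM in fasted libraries. All fasted values of Paics lay below the control values and close together, at −0.24 ± 0.11 on the log2 scale (edgeR adjusted p = 0.267). Adsl, the lyase that acts both in the ring route and on the way to AMP, had 347, 299 and 312 CPM in control and 251, 280.3 and 274 CPM in fasted libraries. Its groups also stood apart, at −0.25 ± 0.12 (edgeR adjusted p = 0.273).

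Gart, which carries 3 activities of the ring route in 1 protein, and Atic, which closes the ring, completed the group of 6. Gart had a log2 fold change of −0.23 ± 0.15 with overlapping groups. Atic had 125, 112 and 105 CPM in control and 108, 107 and 148 CPM in fasted libraries, so that fasted library 3 was the highest and the fold change was 0.08 ± 0.16. In all, 5 of the 6 ring genes had values below 0, 3 had groups that did not overlap, and Ppat and Pfas were called lower in the edgeR fit of all genes (adjusted p = 0.034 and 0.0437). Among all expressed genes 47.7% were below 0, and in 13.0% every fasted library lay below every control library. The edgeR fit of all genes called 12.8% of the expressed genes lower. The ratio of Atic to Ppat counts, the last step over the first, was 0.442, 0.483 and 0.489 in control libraries and 0.687, 0.629 and 0.727 in fasted libraries, which do not overlap. Exons of Ppat and Paics (chr5:76951307-76967509, plus strand) overlap at their shared 5′ ends on opposite strands. Whether counting used strand is not given in the sources used here, so reads in that overlap cannot be assigned. The same holds where exons of Gart, Impdh2, Umps, Shmt1, Mthfd1, Tk1 and Rrm2b overlap a gene on the other strand.

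Beyond IMP, Impdh1 and Impdh2 carry out the rate-limiting step towards GMP and Gmps completes it, while Adss takes the first step towards AMP. Impdh1 had 87.1, 86.7 and 103 CPM in control and 81.8, 64.3 and 72 CPM in fasted libraries. The groups did not overlap, and the log2 fold change was −0.34 ± 0.14 (edgeR adjusted p = 0.236). Impdh2, the form that dominates in proliferating cells, had 277, 346 and 299 CPM in control and 275, 321 and 317 CPM in fasted libraries. The groups overlapped almost fully, at −0.02 ± 0.13 (edgeR adjusted p = 0.959), and the sign depended on the scaling. Impdh2 stood at 99.9 CPM per kilobase in control libraries and Impdh1 at 28. Their count ratio in the control libraries, 3.18, 4.00 and 2.91, overlapped with that in the fasted libraries, 3.36, 4.99 and 4.40.

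Gmps had 229, 220.3 and 225 CPM in control and 181, 193 and 197 CPM in fasted libraries. These were the tightest control values of the named enzymes of this branch, every fasted library lay below them, and the fold change was −0.24 ± 0.11 (edgeR adjusted p = 0.254). Adss had 149, 136 and 159 CPM in control and 124, 131 and 112 CPM in fasted libraries. Its groups did not overlap either, at −0.28 ± 0.13 (edgeR adjusted p = 0.264). Impdh1, Gmps and Adss were called lower in the edgeR fit of all genes, with adjusted p-values of 0.0395, 0.0491 and 0.0476, and by DESeq2 they were not called. Of the expressed genes 12.8% were called lower in the edgeR fit of all genes and 1.65% by DESeq2. In 13.0% of them every fasted library lay below every control library.

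Pyrimidine synthesis held both the highest fold change of the 31 enzymes and the second lowest. Cad, the trifunctional protein that opens the route, had 192, 195 and 146 CPM in control and 189, 212 and 241 CPM in fasted libraries. Fasted library 3 was the highest and control library 3 the lowest, the groups overlapped, and the log2 fold change was 0.27 ± 0.15 (edgeR adjusted p = 0.344). In the edgeR fit of all genes Cad was at −0.26 (adjusted p = 0.452), so its sign depended on the scaling. Umps, which joins the ring to PRPP and makes UMP, had 455, 324 and 361 CPM in control and 233, 253 and 253 CPM in fasted libraries. All 3 fasted libraries lay below all controls and close together, and the fasted mean was 64.7% of control. For Umps the log2 fold change was −0.63 ± 0.15, with an adjusted p of 0.131 by edgeR and 0.0173 by DESeq2, and it was −1.16 (adjusted p = 0.0277) in the edgeR fit of all genes. Dhodh, the mitochondrial enzyme between Cad and Umps, had −0.19 ± 0.16 with overlapping groups.

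The ratio of Cad to Umps counts was 0.421, 0.601 and 0.404 in control libraries and 0.812, 0.840 and 0.956 in fasted libraries. The groups did not overlap, and the mean was 0.475 ± 0.109 in control and 0.869 ± 0.0759 in fasted libraries (SD, n = 3). Cad had the highest fold change and Umps the second lowest, and the pair was chosen after the values were seen. That choice favours a separation, so the ratio carries no test. The plot of ratios sets this pair beside 3 others.

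**Figure D3:**
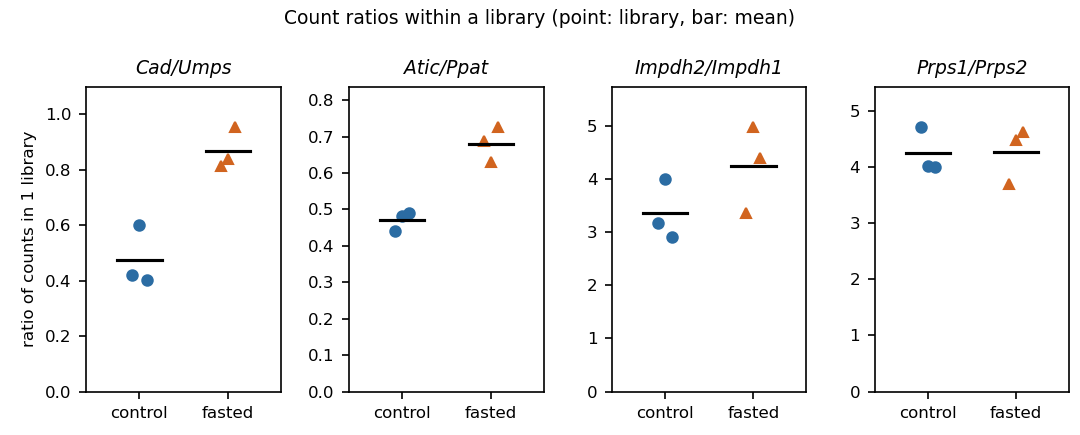
Ratio of the counts of 2 genes within each library (vertical axis, no unit, from 0) for 4 pairs, control as circles and fasted as triangles, with bars at the group means. For Cad/Umps and Atic/Ppat all triangles lie above all circles, while for Impdh2/Impdh1 and Prps1/Prps2 the groups overlap. The pairs were chosen after the values were seen.

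Ctps and Ctps2 are the CTP synthases, which make CTP from UTP. Ctps had 151, 119 and 107 CPM in control and 87.1, 83 and 101 CPM in fasted libraries, and Ctps2 had 116, 104 and 119 and 88.3, 91.5 and 63.1 CPM. In both genes every fasted library was below every control library. The log2 fold changes were −0.48 ± 0.16 and −0.48 ± 0.16, with edgeR adjusted p-values of 0.171 and 0.172. Both were called lower in the edgeR fit of all genes (adjusted p = 0.034 and 0.0359) and neither by DESeq2. That edgeR fit called 12.8% of the expressed genes lower.

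Ribonucleotide reductase is a complex of the large subunit Rrm1 with a small subunit, either Rrm2, which is made in S phase, or Rrm2b, which is induced by p53. Rrm2 had 346, 376 and 297 CPM in control and 227, 278 and 311 CPM in fasted libraries. Fasted library 3 lay above control library 3, so the groups overlapped, and the log2 fold change was −0.32 ± 0.15 (edgeR adjusted p = 0.273; 0.0438 in the fit of all genes). Rrm1 was at −0.17 ± 0.14, again with overlapping groups. The count ratio of Rrm1 to Rrm2 was 2.07, 1.92 and 2.20 in control libraries and slightly higher, without overlap, in fasted libraries, at 2.30, 2.29 and 2.25. Rrm2b had 20.2, 14.2 and 12.9 CPM in control and 20.4, 16.5 and 21.3 CPM in fasted libraries, too close to the receptor level to be read as a difference.

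Thymidylate synthesis couples deoxynucleotides to folate. Shmt1, the cytosolic hydroxymethyltransferase that loads a one-carbon unit from serine onto folate, had 146, 85.8 and 136 CPM in control and 83.7, 58.1 and 62.2 CPM in fasted libraries. Its highest fasted library, at 83.7 CPM, lay just below its lowest control, at 85.8 CPM, while the other 2 controls stood far above. The fasted mean was 55.5% of control and the log2 fold change −0.85 ± 0.22, the lowest of the 31, with an adjusted p of 0.143 by edgeR and 0.0216 by DESeq2. In the edgeR fit of all genes Shmt1 was at −1.38 (adjusted p = 0.0189). Tyms, the thymidylate synthase itself, had 240.3, 196 and 182 CPM in control and 167, 137 and 155 CPM in fasted libraries. The groups did not overlap, and the log2 fold change was −0.43 ± 0.14 (edgeR adjusted p = 0.17; 0.0359 in the fit of all genes).

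Mthfd1, the trifunctional cytosolic enzyme that interconverts one-carbon folates, had 683, 609 and 395 CPM in control and 467, 607 and 712 CPM in fasted libraries. Control library 3 was the lowest and fasted library 3 the highest, the groups overlapped widely, and the log2 fold change was 0.08 ± 0.22 (edgeR adjusted p = 0.855). Without control library 3 it was −0.14, and in the fit of all genes −0.47. Mthfd1l, the mitochondrial formate-producing enzyme, was at −0.04 ± 0.15. The count ratio of Mthfd1 to Shmt1 was 4.68, 7.09 and 2.91 in control libraries and, with an overlap, 5.59, 10.4 and 11.4 in fasted libraries.

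Of the enzymes that handle finished deoxynucleotides, Dctpp1, a pyrophosphatase that clears dCTP and modified forms of it, had 136, 126 and 140.4 CPM in control and 105, 102 and 91.8 CPM in fasted libraries. Every fasted library was below every control library, and the fasted mean was 74.1% of control. The log2 fold change was −0.43 ± 0.12, with an adjusted p of 0.148 by edgeR and 0.0503 by DESeq2, just above the threshold, and 0.0346 in the edgeR fit of all genes. Dut, which removes dUTP, and Tk1, the S phase thymidine kinase, had overlapping groups at −0.07 ± 0.14 and −0.10 ± 0.15.

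Nucleoside diphosphate kinases hand the last phosphate to nucleotides. Nme1 had 331, 318 and 299 CPM in control and 237, 279 and 296 CPM in fasted libraries. The groups did not overlap, although fasted library 3 came close to control library 3, and the log2 fold change was −0.22 ± 0.13 (edgeR adjusted p = 0.34). Nme2 held 50, 56 and 30 counts in control and 26, 42 and 52 in fasted libraries, too few to read. Exons of Nme1 and Nme2 both overlap the read-through gene Gm20390 on the same strand, which held 0 counts in every library. How reads shared between these genes were assigned is not given in the sources used here, so the levels of Nme1 and Nme2 are uncertain.

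The 4 salvage enzymes recover bases and nucleosides instead of building them. Hprt, which salvages hypoxanthine and guanine, had 221, 245 and 223 CPM in control and 192, 213 and 226 CPM in fasted libraries. The groups overlapped, and the log2 fold change was −0.13 ± 0.12 (edgeR adjusted p = 0.566). Aprt, which salvages adenine, was at −0.11 ± 0.14, adenosine kinase Adk at −0.13 ± 0.14 and deoxycytidine kinase Dck at 0.09 ± 0.17. None of the 4 had groups that stood apart, and none was called in the edgeR fit of all genes, where their adjusted p-values ran from 0.074 to 0.227; the lowest unadjusted p among them in the fit of expressed genes was 0.309. Whether salvage and synthesis genes differ was not tested.

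The 4 expressed enzymes with a fold change above 0, Cad, Atic, Mthfd1 and Dck, all had their lowest value in control library 3. That library also had the lowest sum of erythroid markers, 4665 CPM, and the highest sum of granulocyte and monocyte markers, 19295 CPM. Without it 30 of the 31 enzymes were below 0, the median was −0.28 and Cad was at 0.12. The part of these other transcripts in the values was not tested.

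Leaving out 1 library at a time kept 14 of the 31 fold changes within 1.5 times their value, moved 10 by more with the same sign, and turned the sign of 7. The 14 include Umps, Shmt1, Prps1, Prps2, Ppat, Ctps, Ctps2, Tyms and Dctpp1. Of the 10, those that came nearer to 0 by over 1.5 times were, with control library 1 left out, Gart (−0.12), Pfas (−0.16), Dhodh (−0.03) and Adk (−0.06), and with control library 2 left out Aprt (−0.07). With fasted library 1 left out they were Gart (−0.13), Dhodh (−0.12), Rrm1 (−0.06), Rrm2 (−0.21), Nme1 (−0.14), Hprt (−0.07) and Adk (−0.08). Cad came to 0.12 without control library 3 and 0.18 without fasted library 3. The sign turned for Mthfd1 without control library 3 (−0.14) or fasted library 3 (−0.07), for Dck without control library 3 (−0.10), and for Atic without control library 3 (−0.0004) or fasted library 3 (−0.09). It turned for Impdh2 without control library 2 (0.04) or fasted library 1 (0.05), for Mthfd1l and Dut without fasted library 1 (0.04 and 0.0052), and for Tk1 without control library 2 (0.01).

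By role, the lowest medians were those of PRPP synthesis, at −0.53 over 2 genes, and pyrimidine synthesis, at −0.48 over 5. The IMP branches had −0.26 over 4 genes, ribonucleotide reductase −0.25 over 2, ring synthesis −0.24 over 6, thymidylate and folate −0.24 over 4, the diphosphate kinases −0.22 over 1, salvage −0.12 over 4, and thymidine kinase with the pool-cleaning enzymes −0.10 over 3. Each of the 9 roles thus had a median below that of all expressed genes. The 15 enzymes with groups apart came from 7 of the roles, and ribonucleotide reductase and salvage had none.

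Other genes of these routes were taken from lists written for comparison, and the differences between lists were not tested. Of the 20 other folate and one-carbon genes 12 were expressed, 10 of them below 0, with a median of −0.14. Only 2 of the 12, Ggh and Mthfd2, had lower groups apart. In that list Ggh, the hydrolase that trims folate polyglutamates, was the lowest, with 19.2, 20.8 and 21.6 CPM in control and 14, 15 and 11.2 CPM in fasted libraries and a log2 fold change of −0.62 ± 0.21. Fpgs, which adds those glutamates, was the highest at 0.16 ± 0.22, with overlapping groups. The edgeR adjusted p was 0.173 for Ggh and 0.699 for Fpgs. Mitochondrial Mthfd2 was at −0.40 ± 0.14 with groups apart, and was picked after its value was seen. Among all expressed genes 47.7% were below 0 and 13.0% had lower groups apart.

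Serine synthesis feeds the one-carbon pool, and all 3 of its enzymes had groups that did not overlap, with a median of −0.30. Lower groups apart were seen in 13.0% of the expressed genes. Phgdh, the first enzyme, had 655, 631 and 709 CPM in control and 551, 498 and 398 CPM in fasted libraries, the lowest of the list at −0.46 ± 0.14. Psph, the last enzyme, was the highest at −0.16 ± 0.14. In the edgeR fit of all genes 2 of the 3 were called lower, and 0 in the fit of expressed genes (the adjusted p of Phgdh was 0.159). The fit of all genes called 12.8% of the expressed genes lower.

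Of the 20 other pyrimidine and deoxynucleotide genes 15 were expressed, with 10 below 0, a median of −0.10 and 6 with lower groups apart. Dctd, the dCMP deaminase, was the lowest at −0.55 ± 0.26 and mitochondrial Tk2 the highest at 0.26 ± 0.19. Of the 27 other purine genes 20 were expressed, with 12 below 0, a median of −0.07 and 5 with lower groups apart. They ran from Adssl1, the second adenylosuccinate synthase, at −1.01 ± 0.44 to the AMP deaminase Ampd3 at 0.75 ± 0.28. Of the 7 nucleoside transporters 4 were expressed, 2 on each side of 0, from Slc28a2 at −0.25 ± 0.24 to Slc29a2 at 0.50 ± 0.31. Over all expressed genes 47.7% were below 0 and 13.0% had lower groups apart.

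Among 23 genes of the Myc, E2F and Rb families with their partners and Atf4 19 were expressed, with 8 below 0, 11 above and a median of 0.19. Myc, an activator of nucleotide synthesis genes, had 1037, 415 and 360.3 CPM in control and 359, 277 and 387 CPM in fasted libraries. Control library 1 stood far above the rest, and the groups overlapped at −0.83 ± 0.42 (edgeR adjusted p = 0.328). The part of Myc in the enzymes' values was not tested. E2f2 was the highest at 0.72 ± 0.29, with 13.7, 28.5 and 19.2 CPM in control and 28.9, 42 and 29.7 CPM in fasted libraries. Its groups did not overlap, and its edgeR adjusted p was 0.221.

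The other S phase genes are replication factors outside the 33 enzymes. All 38 were expressed, 36 were below 0, the median was −0.28 and 20 had lower groups apart. They ran from the clamp loader subunit Rfc2 at −0.51 ± 0.14 to the checkpoint adaptor Clspn at 0.36 ± 0.20. Their sum was 10652, 9968 and 8937 CPM in control libraries 1 to 3 and 7454, 8070 and 7927 CPM in fasted libraries 1 to 3, which do not overlap. In the edgeR fit of all genes 21 of the 38 were called lower, in the fit of expressed genes 0, and by DESeq2 4. Over all expressed genes 47.7% were below 0 and 13.0% had lower groups apart. Of the same genes 12.8% were called lower in the edgeR fit of all genes and 1.65% by DESeq2. The part of the cells' S phase share in the enzymes' values was not tested.

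**Figure D4:**
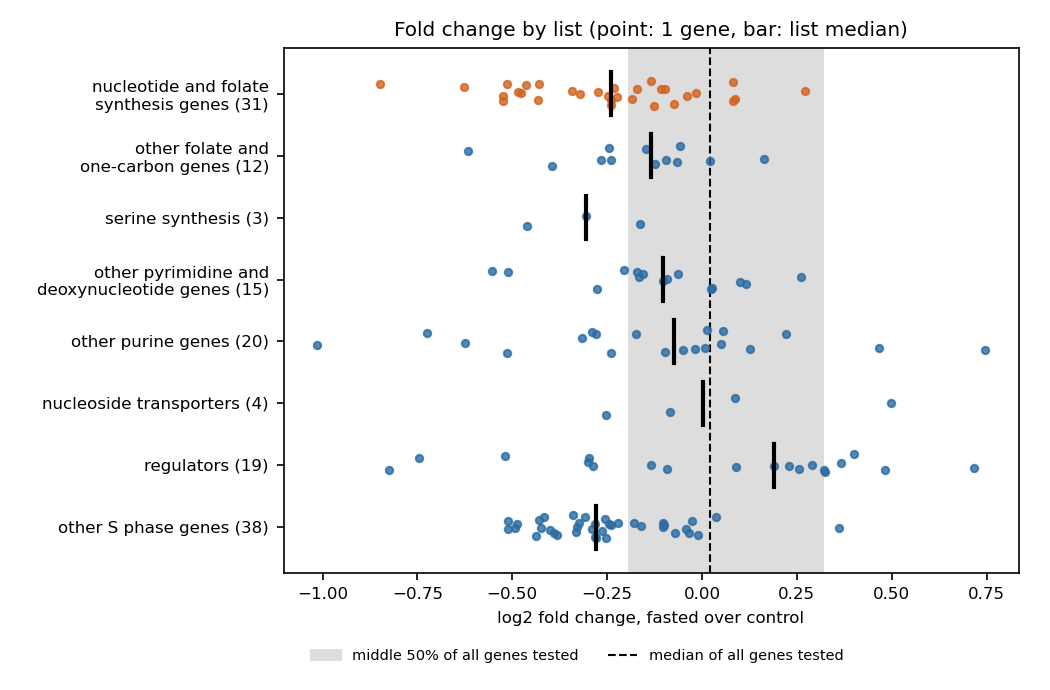
Log2 fold change, fasted over control, in the fit of expressed genes for the 31 nucleotide and folate synthesis genes and for 7 lists of related genes (1 point per expressed gene, number in brackets, bars at list medians), with the quartile range and median of all expressed genes. The synthesis genes run from −0.85 to 0.27 and the other purine genes from −1.01 to 0.75.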

How the data were processed

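Counts per gene were deposited by the authors for 6 libraries of polyadenylated RNA from megakaryocyte-erythroid progenitors. Per the submitters' processing notes HISAT2 2.2.1, featureCounts 2.0.1 and GRCm38 were used. Strand handling and the annotation release are not given in the sources used here. Of the 55487 identifiers 54435 matched GENCODE M21 with their version, the 33 enzymes among them, and all had the deposited exonic length. No row lacked a gene.

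The 33 enzymes and the lists were chosen with earlier results of these data known. Genes were fitted that passed filterByExpr and had a mean count of at least 5 times the background, the rate of 1468 receptor genes times exonic length. In edgeR 4.0.16 (R 4.3.3) these genes gave the TMM factors, and the quasi-likelihood fit (glmQLFit after estimateDisp, both robust) had no covariate beside group, with Benjamini-Hochberg adjustment over all genes fitted. The procedure was run on simulated counts whose seeded changes were larger than any seen in the enzymes. That run does not measure how well it finds changes as small as theirs. An earlier treatment of these data scaled on all genes passing the filter, most of them near background, which shifts expressed genes down, so that fit is an alternative here. DESeq2 1.42.0 and limma 3.58.1 were others.

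By rule, genes described by library were those whose groups did not overlap, those with an absolute log2 fold change of at least 0.5, those called in the all-gene fit and the member of each role with the highest level per kilobase. Cad, Atic, Rrm2b and Nme2 met none of these and were described by library outside the rule. Other lists gave their highest and lowest gene.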

Additional observations from a re-analysis of the deposited data

How the results depend on the processing

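The number of enzymes called at an adjusted p under 0.05, 0 in the fit of expressed genes, was 14 with all genes and their TMM factors (3.82% of all genes fitted were called lower), 5 with all genes and the factors of the expressed genes (0.698%), 12 with a summed count of at least 10 (2.61%), 12 at 2 times the background (5.42%), 4 with DESeq2 (1.65%), and 6 with all genes and library totals alone (0.797%), an alternative chosen after seeing the data. The shares in brackets are over all genes fitted, which outside DESeq2 include genes near background. With all genes and their TMM factors, 12.8% of the expressed genes were called lower. For the other settings with such genes the share of expressed genes is not given here. The median of −0.239 became −0.761, −0.795 (summed count of at least 10), −0.581 (2 times) and −0.16 (10 times the background). Mthfd1 turned to −0.471, −0.508 and −0.273 in the first 3 of these median settings, and Impdh2 to 0.061 at 10 times the background, 0.052 with upper-quartile factors, 0.051 with library totals and 0.055 with the background subtracted. With all genes and their TMM factors Cad, Atic and Dck also turned, to −0.265, −0.462 and −0.447. With all genes and the factors of the expressed genes the median was −0.239, 27 enzymes were below 0 and Mthfd1 was at 0.083. Why the settings differ was not tested. Leaving out 1 library at a time gave medians of −0.291 to −0.199, 24 to 30 enzymes below 0 and 0 calls in the fit of expressed genes. It moved Mthfd1 between −0.142 and 0.247 and Impdh2 between −0.086 and 0.052; of the 31 enzymes 7 turned sign and 10 more moved by over 1.5 times. The 14 calls of the all-gene fit ranged from 0 when fasted library 3 was dropped to 27 when control library 3 was; dropping control 1, control 2 or fasted 1 left 9, 2 or 1. The 4 DESeq2 calls ranged from 0 (fasted 3 dropped) to 4, with 1 for control 3 or fasted 2 and 2 for control 1 or fasted 1. For neither set of fits is the share over all genes given here. Enzymes with groups apart, 15, numbered 9 with library totals of the expressed genes, where 7.95% of the expressed genes did so, and 27 with all-gene factors, where 47.5% did. The replicate block gave a median of −0.239, 27 below 0 and 0 calls, and changed no call. Deviations from the group means correlated at −0.17, 0.14 and −0.33 between same-numbered libraries. Between differently numbered libraries they ran from −0.17 to 0.30. With 3 libraries per group these values cannot tell whether the numbers pair, and the labels do not say. Single-gene values under other settings were compared for the expressed enzymes that met the rule for description by library, which leaves out Cad, Atic and Dck. Of these values 356 kept side and direction, 53 passed the threshold and 11 reversed. Nearness to the receptor level limits Rrm2b and Nme2.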
